A study of Mus musculus with 62 samples.

Results

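Proliferating C2C12 cells, a mouse myoblast line, were infected with a pCX4/puro retrovirus that carried the mouse RPL3L cDNA (RPL3L OE) or no insert (Control) and were selected with puromycin. Gene by gene, the translation efficiency (TE) in RPL3L OE cells was set against that in Control cells, where TE is the ratio of ribosome footprints (Ribo-seq) to mRNA (RNA-seq). The comparison rests on 12 of the 62 samples of the series, namely 3 Ribo-seq and 3 RNA-seq libraries of each group. The libraries are numbered 1 to 3 in the labels, which do not say whether they came from separate infections, so the p-values measure the spread between these libraries, and that spread may be technical. Cells infected with the same vector carrying RPL3 cDNA (RPL3 OE) and hearts of male C57BL/6J mice aged 10 weeks that lacked *Rpl3l* through loss of exon 2 (*Rpl3l* KO) or did not (WT) served for comparison, with 3 libraries of each assay for RPL3 OE and 4 for each heart genotype. The RPL3 OE libraries entered the same model and its estimate of the spread. After 1 transcript had been kept per gene and a mean count of at least 10 had been required in each assay, 5411 genes were tested.

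RPL3 is a protein of the large ribosomal subunit that reaches from the surface toward the peptidyl transferase center, where peptide bonds form. RPL3L is its paralog in heart and skeletal muscle, where it can take the place of RPL3 in the ribosome. TE summarizes how many ribosomes were found on an mRNA relative to its abundance. It rises when more ribosomes initiate on an mRNA and also when each ribosome stays longer on it, and these data do not separate the alternatives.

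The depth differed between the groups. Total counts were 14324795 to 29746110 in the Control RNA-seq libraries and 8091836 to 9715596 in those of RPL3L OE, whereas they were 3167026 to 4228211 and 4957113 to 6093268, respectively, in Ribo-seq. All levels below are in CPM, the usual unit of counts relative to the library total. The marker levels of this paragraph and all marker sums use unscaled totals. Elsewhere the totals were scaled by the trimmed mean of M-values (TMM) within each assay. The cells had the markers of their label, in that the 5 myoblast markers in the table, including *Myod1* (68.7 to 84.6 CPM in Control RNA-seq), were all detected. Their summed RNA-seq level was 763 to 806 CPM in Control and 933 to 949 CPM in RPL3L OE libraries. The summed level of 7 markers of differentiated myotubes was 33.3 to 36.3 CPM and 37.7 to 39.1 CPM, respectively, that of 7 fibroblast markers was 1180 to 1240 CPM and 1320 to 1360 CPM, and that of 2 adipocyte genes, all of it *Pparg*, was 44.0 to 47.3 CPM and 32.9 to 37.3 CPM. The fibroblast sum was carried by *Col1a1* (320 to 349 CPM and 414 to 431 CPM) and *Col1a2* (778 to 807 CPM and 815 to 849 CPM), whereas *Pdgfrb* was at 72.3 to 75.8 CPM and 70.5 to 74.3 CPM, and the median mRNA change of the 5 fibroblast markers tested was -0.05. Markers of macrophages, endothelium and epithelium each summed to at most 2.06 CPM in RNA-seq and 3.07 CPM in Ribo-seq of these groups. The cardiomyocyte gene *Nppa* was at 0 in every RNA-seq library, but its footprints were at 0.62 to 10.1 CPM in Control and 0.605 to 1.97 CPM in RPL3L OE libraries. The muscle myosin gene *Myh8* likewise had footprints of 5.05 to 8.05 CPM and 5.42 to 7.67 CPM with mRNA of at most 0.0635 CPM. What part these shifts or the depth had in the results below was not tested.

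The introduced gene was abundant only in the libraries labelled for it. *Rpl3l* (chr17:24727820-24736143, GRCm38) had RNA-seq levels of 0.567, 0.351 and 0.168 CPM in the Control libraries and of 2024, 2048 and 1982 CPM in those of RPL3L OE. Its footprints were 6.84, 4.49 and 8.02 CPM in Control cells, from 29, 14 and 25 counts, and 1245, 1293 and 1214 CPM in RPL3L OE cells. All RPL3L OE libraries were above all Control libraries in both assays. *Rpl3l* mRNA rose by 12.57 (SE 0.10) and its footprints by 7.59 (SE 0.10) on the log2 scale, and its TE was lower by a log2 change of -4.98 (SE 0.35, edgeR quasi-likelihood adjusted p = 4.21e-16). The Control mRNA level rests on 9, 5 and 5 counts, and reads that mapped to more than a single transcript were kept by the authors. Whether footprints from *Rpl3*, its paralog, were counted for *Rpl3l* in Control cells was not tested.

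Excess RPL3L was accompanied by TE changes of modest size in 114 genes at an adjusted p under 0.05 (edgeR quasi-likelihood test, Benjamini-Hochberg), which is 2.11% of the genes tested. TE was higher for 50 genes (0.924%) and lower for 64 (1.18%), and the median size of the called changes was 0.338 on the log2 scale, with 4 genes reaching a 2-fold change. Many more genes changed in the quantities that make up TE. mRNA changed for 591 genes (10.9%), with 328 up (6.06%) and 263 down (4.86%), and footprints changed for 672 genes (12.4%), with 300 up (5.54%) and 372 down (6.87%). In both directions the most frequent combination was a footprint change with no mRNA call. Of the 50 genes with a higher TE, 35 gained footprints with no mRNA call, 6 lost mRNA with no footprint call, 4 did both, 4 had neither call and *Tnnt2* alone rose in both. Of the 64 with a lower TE, 36 lost footprints with no mRNA call, 18 gained mRNA with no footprint call, 6 rose in both, *Rpl3l* among them, 2 gained mRNA and lost footprints, 1 fell in both and 1 had neither call. Median changes for the genes with a higher TE were 0.36 for TE, -0.08 for mRNA and 0.32 for footprints, and those for the genes with a lower TE were -0.31, 0.12 and -0.22, respectively. As background for the lists below, 868 of the 5411 genes had an unadjusted p under 0.05 for TE in edgeR.

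**Figure D1:**
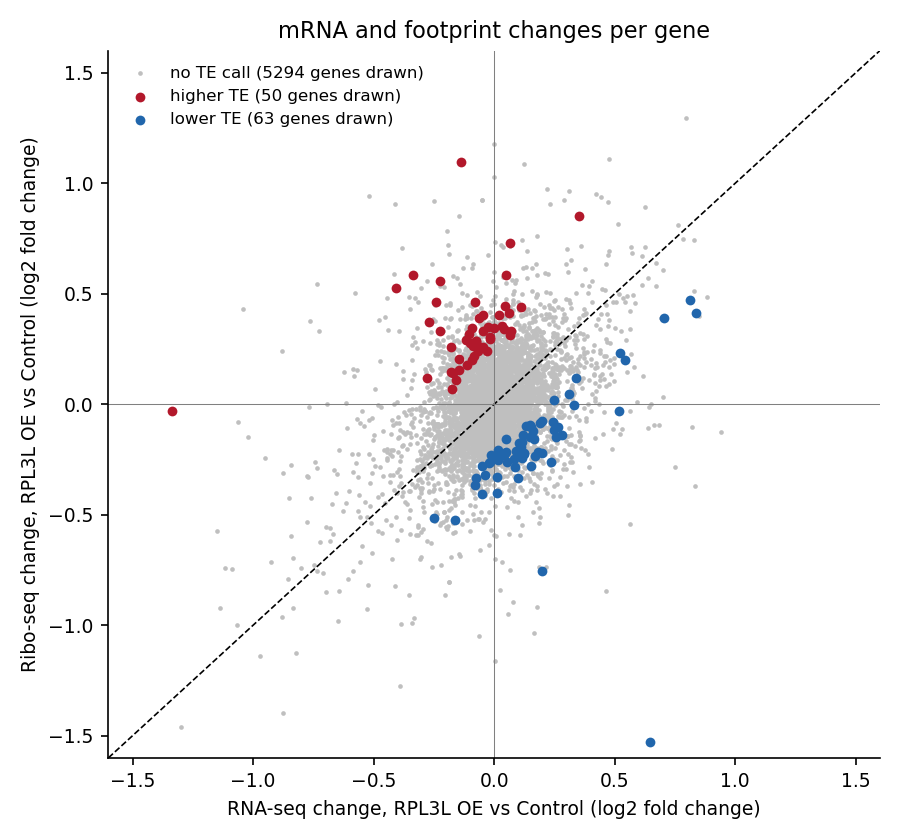
Log2 change in mRNA (x axis) against log2 change in footprints (y axis) between RPL3L OE and Control cells, 1 point per gene, with the 114 genes called for TE in color. Points above the diagonal gained TE and points below it lost TE, and 4 of the 5411 genes, *Rpl3l* included, lie outside the axes.

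The number and direction of these calls moved with the scaling, with the removal of GC and length trends and with the libraries. Scaling by library totals gave 158 called genes, 108 higher and 50 lower, and footprint calls of 437 up and 268 down. Removing each library's trends with GC content and transcript length left 53 calls, 13 higher and 40 lower, of which 34 were among the 114 genes and kept their direction. In that fit footprints rose for 190 genes and fell for 290. Leaving out Control 2, Control 3, RPL3L OE 2 or RPL3L OE 3 gave 50, 52, 44 and 27 calls, respectively. Here and below, leaving out a group and number removed its RNA-seq and its Ribo-seq library together. The labels do not say whether such a pair of libraries shares a culture. The 27 genes called without RPL3L OE 3 were all among the 114. Of the 39 called genes that are described by name under the naming rule, 9 kept the call in all 19 alternative analyses: *Rpl3l*, *Polr2k*, *Smc4*, *Igfbp2*, *Myadm*, *Agap1*, *Sox9*, *Thbs1* and *Myl9*.

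Codon use in the most strongly called genes is shown by 10 codons from the middle of the reading frame of the 3 leading genes of each direction other than *Rpl3l*, read 5′ to 3′ from the plus strand of GRCm38, with codon position 3 in capitals because genes of the opposite directions differed in base composition at that position. For the genes with a higher TE these were
*Polr2k*, chr15:36175005-36175034: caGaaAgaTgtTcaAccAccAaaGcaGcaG
*Smc4*, chr3:69025887-69025916: gaCtaCatTgtTgtTgaTtcTatTgaTacA
*Cetn3*, chr13:81786924-81786953: ggCaaGatCacAttTgaAgaTttTaaTgaA
and for those with a lower TE
*Igfbp2*, chr1:72849142-72849171: atGaaCatGttGggAggTggTagCagTgcT
*Myadm*, chr7:3297189-3297218: ccCggTgaGatCacTggCtaTatGgcTacC
*Agap1*, chr1:89789231-89789260: ccAccCccCtcCccCcaCgcCaaCagAaaG
G or C stood at position 3 of 4, 2 and 3 of the 10 codons in the first set and of 5, 6 and 8 in the second. Over the whole reading frame the shares were 44.4%, 35.1% and 40.7% for *Polr2k*, *Smc4* and *Cetn3* and 80.3%, 66.6% and 74.3% for *Igfbp2*, *Myadm* and *Agap1*.

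Among genes with a higher TE, the smallest p-value belonged to *Polr2k*, which encodes a small subunit shared by the nuclear RNA polymerases. Its footprints were 60.6, 61.9 and 61.2 CPM in Control cells and 85.0, 81.0 and 86.5 CPM in RPL3L OE cells, with no overlap, while its mRNA was 40.6, 52.5 and 44.6 CPM and 40.8, 36.7 and 38.4 CPM, with overlap. TE rose by 0.70 (SE 0.11, edgeR adjusted p = 3.48e-05). *Smc4* encodes a core subunit of condensin, which compacts mitotic chromosomes. Its footprints were 165, 169 and 160 CPM in Control and 212, 205 and 189 CPM in RPL3L OE libraries, and its mRNA was 376, 390 and 387 CPM and 364, 359 and 342 CPM, so that the groups were separate in both assays and in opposite directions. The TE of *Smc4* rose by 0.41 (SE 0.07, edgeR adjusted p = 0.000905). *Cetn3*, which encodes a centrin of the centrosome, had footprints of 47.9, 52.6 and 52.0 CPM and of 64.8, 79.0 and 65.6 CPM, with mRNA between 75.2 and 87.2 CPM throughout. Its TE rose by 0.54 (SE 0.10, adjusted p = 0.00101), a call that was lost when GC and length trends were removed.

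The next genes in this direction also gained footprints. *Sept7*, which encodes a septin filament protein, went from footprints of 247, 239 and 236 CPM to 309, 301 and 308 CPM, with an mRNA change of 0.00, and its TE rose by 0.35 (SE 0.07, edgeR adjusted p = 0.00153). The TE of *Sarnp*, which encodes an RNA-binding protein of mRNA export, rose by 0.42 (SE 0.08, edgeR adjusted p = 0.00198). Both calls were lost with GC and length trends removed. *Ppil4*, a gene for a peptidyl-prolyl isomerase, had footprints of 39.1, 43.0 and 36.9 CPM and of 63.2, 61.0 and 55.0 CPM with overlapping mRNA, and its TE rose by 0.54 (SE 0.11). *Bnip2* rose in TE by 0.38 (SE 0.08), with mRNA of all RPL3L OE libraries below and footprints of all above those of Control. *Tnnt2*, which encodes the cardiac form of troponin T, gained mRNA, from 222, 225 and 228 CPM to 292, 296 and 275 CPM, and gained more footprints, from 31.1, 39.1 and 43.3 CPM to 68.0, 73.1 and 60.9 CPM. Its TE rose by 0.50 (SE 0.10, edgeR adjusted p = 0.00359). The calls for *Ppil4*, *Bnip2* and *Tnnt2* were lost without Control 3, RPL3L OE 3 and Control 1, respectively.

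Among genes with a lower TE, most of the leading ones gained mRNA that footprints did not follow in full. *Igfbp2* encodes a secreted protein that binds insulin-like growth factors. Its mRNA was 380, 365 and 367 CPM in Control and 513, 549 and 558 CPM in RPL3L OE libraries, and its footprints were 655, 678 and 672 CPM and 802, 749 and 754 CPM. Both rose without overlap, mRNA by 0.54 and footprints by 0.20, and TE fell by 0.34 (SE 0.06, edgeR adjusted p = 0.000695). *Agap1*, which encodes a GTPase-activating protein for ARF proteins in membrane traffic, had mRNA of 96.2, 93.0 and 96.5 CPM and of 141, 132 and 137 CPM, whereas its footprints overlapped at 34.6, 34.3 and 41.4 CPM and at 34.6, 34.6 and 37.95 CPM. TE of *Agap1* fell by 0.55 (SE 0.10, edgeR adjusted p = 0.00153). *Myadm*, a gene for a membrane protein associated with myeloid differentiation, had mRNA of 196, 194 and 192 CPM and of 227, 219 and 243 CPM, and footprints of 715, 715 and 712 CPM and of 676, 667 and 681 CPM. Its TE fell by 0.33 (SE 0.06, edgeR adjusted p = 0.00143), the footprint change of -0.08 not being called by itself. *Sox9*, a transcription factor of cartilage and progenitor cells, had mRNA of 48.9, 48.2 and 50.1 CPM and of 61.3, 57.5 and 57.7 CPM, and its TE fell by 0.40 (SE 0.08).

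**Figure D2:**
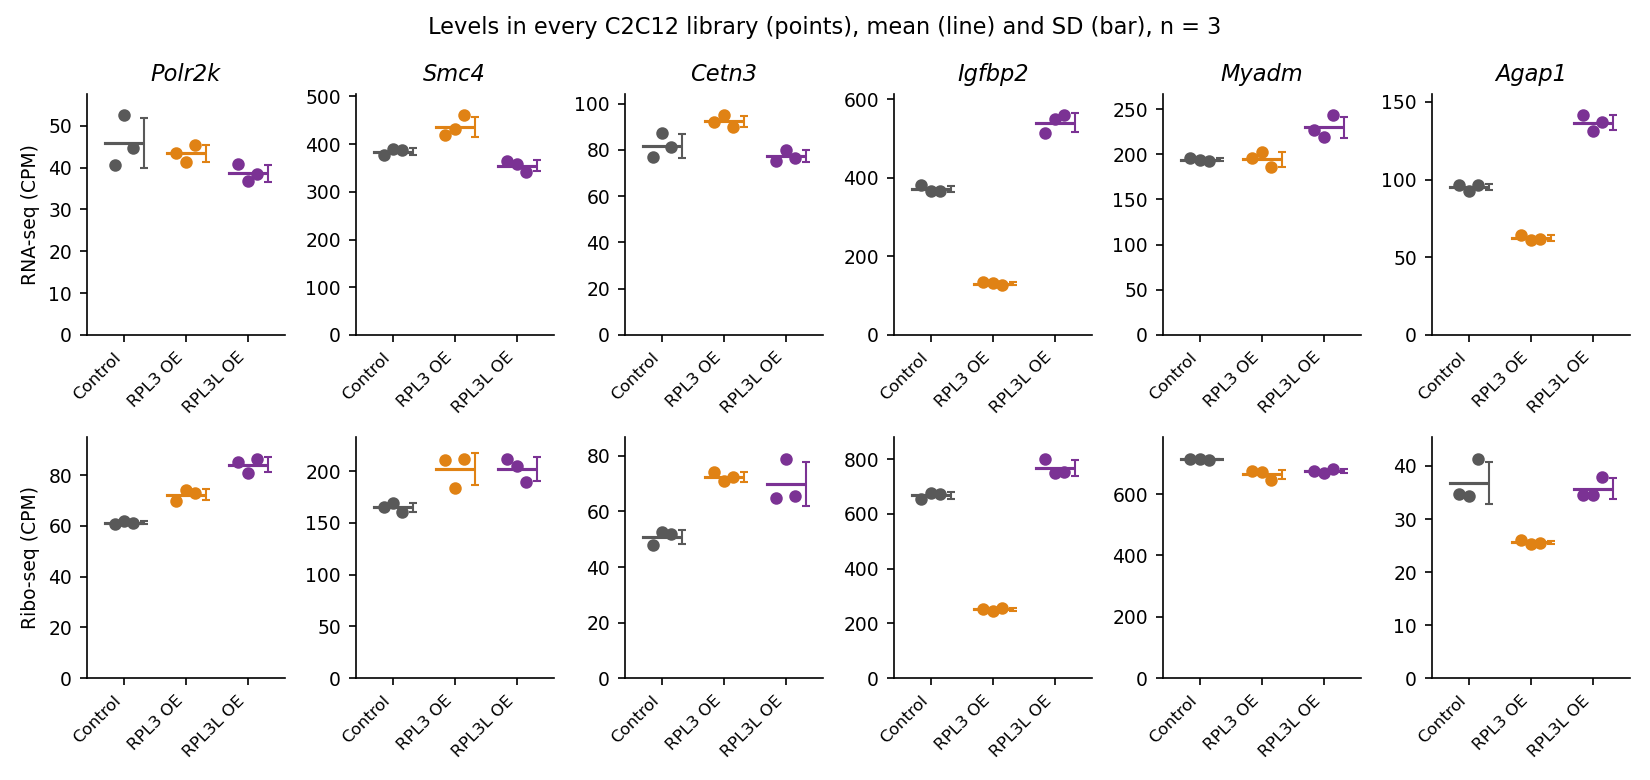
TMM-scaled CPM (y axis, from 0) of 6 genes in RNA-seq (top row) and Ribo-seq (bottom row), by group from Control to RPL3 OE to RPL3L OE, with 1 point per library, a line at the mean and a bar of 1 SD (n = 3). *Polr2k*, *Smc4* and *Cetn3* are higher in footprints of RPL3L OE than of Control cells, whereas *Igfbp2*, *Myadm* and *Agap1* are higher in mRNA.

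In the remaining leading genes of this direction footprints fell with no mRNA call. *H2afx*, which encodes the histone variant phosphorylated at DNA breaks, had footprints of 586, 721 and 678 CPM in Control and of 545, 557 and 528 CPM in RPL3L OE libraries, and its TE fell by 0.43 (SE 0.09, edgeR adjusted p = 0.00253). *Zmiz1*, which encodes a transcriptional coregulator, went from footprints of 156, 156 and 157 CPM to 136, 133 and 132 CPM, and *Zfp703* went from 158, 168 and 166 CPM to 129, 131 and 130 CPM. TE fell by 0.35 (SE 0.07) for the former and by 0.34 (SE 0.07) for the latter. Although not called, mRNA changed by 0.15 for *H2afx* and 0.12 for *Zmiz1*, with all RPL3L OE libraries above all Control libraries. The mRNA of *Zfp703* overlapped between the groups. The calls for *H2afx* and *Zmiz1* were lost without RPL3L OE 3, and those for *Zmiz1* and *Zfp703* with GC and length trends removed.

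Among the largest TE changes other than that of *Rpl3l*, several came from genes with few counts. *Xkr6*, of the XK-related membrane protein family, had footprints of 5.66, 6.09 and 8.98 CPM, or 24, 19 and 28 counts, in Control and of 2.80, 2.21 and 2.09 CPM, or 14, 12 and 13 counts, in RPL3L OE libraries. Its TE fell by 2.18 (SE 0.50), a call lost without RPL3L OE 2 or 3. *Cacna1a*, which encodes the pore of a P/Q-type calcium channel, showed the largest increase, 1.31 (SE 0.35), with mRNA of 4.66, 4.42 and 5.03 CPM and of 1.601, 1.26 and 2.66 CPM and overlapping footprints. *Cxcl12*, a chemokine gene, changed by 0.94 (SE 0.25), and the calls for both were lost without Control 1, Control 3, RPL3L OE 1 or RPL3L OE 2. *Srek1ip1* (0.92, SE 0.22), *Ss18l2* (0.78, SE 0.21), *Slc37a4*, the glucose-6-phosphate transporter gene (-0.95, SE 0.26), *Zfhx3* (-0.50, SE 0.12) and *Fem1a* (-0.43, SE 0.12) were also among the largest changes. So were *Polr2k* and *Agap1*, described above, and *Rpl21*, described below. Counts were not few for *Zfhx3* and *Fem1a*, with at least 130 and 110 footprint counts per library, respectively. The calls for *Srek1ip1*, *Ss18l2*, *Slc37a4*, *Zfhx3* and *Fem1a* were each lost without any of at least 3 of the pairs of libraries. All of these were also lost with GC and length trends removed, and that for *Fem1a* was kept in 10 of the 19 alternatives. Reads of near-identical copies could be shared between *Cox17* and *Gm21987*, *Eno1* and *Eno1b*, and *Eif1a* and *Eif1ax*, each called, so that these pairs are uncertain as separate calls. *Cox17* and *Gm21987* had identical counts in all 18 libraries, so that the totals of 50 and 114 genes count a single set of reads under both names.

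Genes of the cytosolic translation machinery gave 4 TE calls, all higher. Of 44 cytosolic ribosomal protein genes tested, only *Rpl21* was called, against 0.924% of all genes that rose. The median TE change of the list was -0.02 against -0.00 over all genes tested. *Rpl21* had footprints of 1.89, 0.64 and 2.25 CPM, from 8, 2 and 7 counts, in Control and of 3.80, 3.13 and 3.54 CPM in RPL3L OE libraries, set against mRNA above 200 CPM throughout, and many processed copies of this gene exist. Its call was kept in 7 of the 18 alternatives that gave a value. Footprints fell for 9 of the 44 genes, against 6.87% of all genes, and rose for *Rpl21*, and mRNA fell for 2, against 4.86%. Of 27 genes for translation factors, 3 rose in TE, against 0.924% of all genes, each of them for initiation: *Eif1ax* by 0.32 (SE 0.07) and *Eif1a* by 0.40 (SE 0.10), which encode the scanning factor eIF1A, and *Eif3j1*, for a loosely bound subunit of eIF3, by 0.33 (SE 0.08). The footprints of *Eif1ax* were 125, 141 and 130 CPM in Control and 157, 168 and 163 CPM in RPL3L OE libraries, with no overlap and with overlapping mRNA. The median TE change of the list was 0.06, and none of the 3 calls remained with GC and length trends removed. All 3 were also lost without RPL3L OE 3, *Eif1a* without Control 3 or RPL3L OE 2, and *Eif3j1* without Control 2, Control 3 or RPL3L OE 2.

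Factors that charge tRNA or act on stalled ribosomes gave a single call. None of 8 aminoacyl-tRNA synthetase genes was called by edgeR or by DESeq2, and the nearest were *Qars* at 0.24 (SE 0.08) and *Vars* at -0.18 (SE 0.06). Of these 8, 2 had an unadjusted p under 0.05, against 868 of all 5411 genes. Scaling by library totals gave 1 call. Of 19 genes for ribosome rescue and collision sensing, *Gcn1l1* alone was called, against 1.18% of all genes that fell. It encodes the GCN1 protein that binds collided ribosomes, and its footprints were 147, 145 and 132 CPM and 132, 118 and 117 CPM. TE of *Gcn1l1* fell by 0.31 (SE 0.08, edgeR adjusted p = 0.0162). This call was lost with GC and length trends removed and without Control 1, Control 2, RPL3L OE 2 or RPL3L OE 3. Of 47 mitochondrial ribosomal protein genes, *Mrpl30* alone was called, against 0.924% of all genes that rose. Its TE rose by 0.38 (SE 0.09), a call lost without Control 2 or RPL3L OE 3. Among 24 genes of the respiratory chain, 0 were called by either tool, with *Atp5d* at -0.18 (SE 0.07) and *Ndufa3* at 0.26 (SE 0.10). Of these 24, 2 had an unadjusted p under 0.05, against 868 of all 5411 genes.

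Genes of the extracellular matrix gave the most calls of any list. Of 32 tested, 6 fell in TE and 0 rose, against 1.18% of all genes that fell, and the median TE change was -0.16. mRNA rose for 16 of the 32, against 6.06% of all genes, and footprints rose for 6 and fell for 5, against 5.54% and 6.87%. The median changes of mRNA and footprints were 0.15 and 0.03, respectively. *Thbs1*, which encodes the matricellular protein thrombospondin 1, rose in mRNA from 252, 264 and 248 CPM to 421, 391 and 432 CPM and in footprints from 742, 822 and 741 CPM to 1011, 982 and 1027 CPM. Its TE fell by 0.31 (SE 0.06, edgeR adjusted p = 0.00359). *Ccn2*, for a secreted growth factor of fibrosis, showed the same with mRNA up by 0.81 and footprints by 0.47, and its TE fell by 0.34 (SE 0.08). *Hspg2*, which encodes the basement membrane proteoglycan perlecan, fell in TE by 0.32 (SE 0.07), and *Col1a1*, for the main chain of type I collagen, fell by 0.26 (SE 0.07) with mRNA of 346, 352 and 319 CPM and of 417, 430 and 411 CPM and overlapping footprints. *Fbln1* and *Timp1* were the others. The call for *Ccn2* was lost without Control 2 or RPL3L OE 3, that for *Hspg2* without Control 3, and that for *Col1a1* without Control 2, Control 3, RPL3L OE 2 or RPL3L OE 3. With GC and length trends removed the calls for *Hspg2* and *Col1a1* were lost and those for *Thbs1* and *Ccn2* were kept. The list held 3 calls in that fit, and 2 to 7 when single pairs of libraries were left out. The higher summed mRNA of the fibroblast markers in RPL3L OE cells rested on *Col1a1* and *Col1a2*, the other markers not rising as given above and *Thy1* being at 0 in RNA-seq, and its part in these values was not tested.

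Cytoskeletal genes gave 2 TE calls and muscle genes gave 1. Of 29 genes for actin structures and S100 proteins, 12 rose and 5 fell in mRNA, against 6.06% and 4.86% of all genes, and TE fell for 2 and rose for 0, against 1.18% and 0.924%. *Myl9*, which encodes a regulatory light chain of smooth muscle and nonmuscle myosin, had mRNA of 29.3, 33.5 and 33.1 CPM and of 56.5, 54.6 and 60.7 CPM and footprints of 116, 122 and 122 CPM and of 151, 163 and 164 CPM. Its TE fell by 0.42 (SE 0.09, edgeR adjusted p = 0.00357). *Zyx*, for the focal adhesion protein zyxin, fell by 0.22 (SE 0.06), a call kept in 11 of the 19 alternatives. Of 13 genes for skeletal muscle contraction, *Tnnt2* alone was called, with a higher TE, against 0.924% of all genes. None of 11 myogenic regulators was called for TE by edgeR in the main fit or by DESeq2. An unadjusted p under 0.05 was found for 4 of them, against 868 of all 5411 genes. Their mRNA rose for 4, against 6.06% of all genes, and footprints rose for 3 and fell for 3, against 5.54% and 6.87%. *Id1* and *Id3*, for inhibitors of myogenic transcription factors, had TE changes of -0.36 (SE 0.13) and -0.26 (SE 0.10). Each was called in 1 of the 19 alternatives. The summed mRNA of the myoblast markers, some of them in this list, was higher in RPL3L OE libraries as given above, and its part was not tested.

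Genes of the nucleus and of the cell cycle differed in what changed. Of 29 genes for chromosome segregation and replication, *Smc4* alone was called for TE, against 0.924% of all genes that rose. Footprints of the list rose for 7 and fell for 1, against 5.54% and 6.87% of all genes. Of 31 histone genes, footprints fell for 26 and rose for 0, against 6.87% and 5.54% of all genes, with a median change of -0.26 against -0.00 over all genes tested. Their mRNA fell for 4, against 4.86%. *H2afx* was the only TE call, against 1.18% of all genes that fell, and the median TE change was -0.14. Replication-dependent histone mRNAs lack poly(A) tails, so that their level in poly(A) RNA-seq is low, and reads of near-identical histone copies could be shared. Of 140 genes for zinc finger (Zfp) proteins, *Zfp617* rose by 0.64 (SE 0.15) and *Zfp703* fell, against 0.924% and 1.18% of all genes. An unadjusted p under 0.05 was found for 27 of the 140, against 868 of all 5411 genes. The call for *Zfp617* was lost with GC and length trends removed and without Control 3 or RPL3L OE 2.

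Stress and metabolic lists gave few TE calls. *Hspb1*, which encodes a small heat shock protein, was the only call among 33 genes for cytosolic chaperones and the proteasome, against 1.18% of all genes that fell. Its footprints went from 1252, 1387 and 1332 CPM to 1074, 1073 and 1031 CPM and its TE fell by 0.28 (SE 0.06, edgeR adjusted p = 0.00904). The call was lost with GC and length trends removed and without Control 2, Control 3, RPL3L OE 2 or RPL3L OE 3. Both edgeR and DESeq2 called 0 genes for TE in each of 4 lists. These were 6 integrated stress response targets (1 at an unadjusted p under 0.05), 17 genes for folding and translocation in the endoplasmic reticulum (4), 8 genes of polyamine metabolism and hypusine (2) and 12 genes of cholesterol synthesis (3). Over all genes, 868 of 5411 were at such a p. With library totals 3 of the second list and 1 of the last were called. Members named by the rule, none of which passed the test in the main fit, included *Herpud1* (-0.24, SE 0.10), *Cebpb* (-0.19, SE 0.11), *Sec63* (0.23, SE 0.07) and *Srp9* (0.35, SE 0.11). The others were *Oaz1* (-0.15, SE 0.07), *Dohh* (-0.16, SE 0.08) and, for cholesterol synthesis, *Srebf2* (-0.21, SE 0.06). Among the 19 alternatives *Sec63* and *Srp9* were called in 3 each and *Srebf2* in 2. Footprints fell for 4 of the 8 polyamine genes, against 6.87% of all genes, *Oaz1* among them, from 326, 388 and 357 CPM to 296, 295 and 278 CPM.

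**Figure D3:**
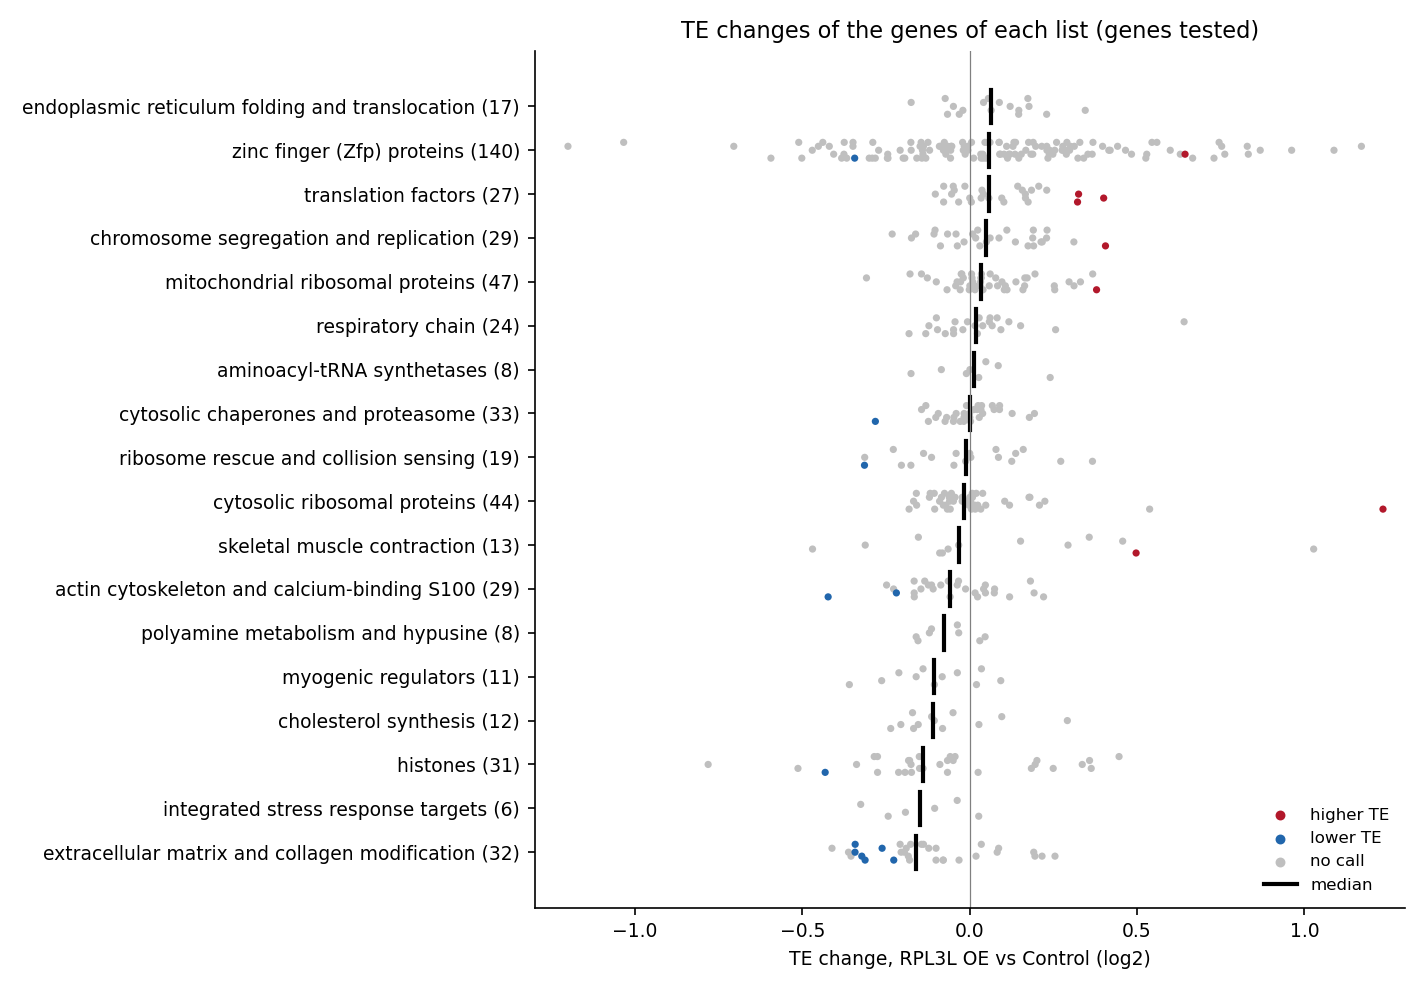
Log2 TE change between RPL3L OE and Control cells (x axis) of the genes of 18 lists, 1 dot per gene, with called genes in red (higher) or blue (lower) and the median of each list as a black mark. The extracellular matrix list holds 6 of the called genes, all lower, and its median is -0.16.

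The genes called in each direction differed in base composition and in the amino acids they encode. Composition was taken from the coding sequence of each transcript, and the GC, glycine and glutamate features were added after the values were seen. The median GC content of the coding sequence was 44.8% for the 50 genes with a higher TE, 58.6% for the 64 with a lower TE and 52.8% for all genes tested. It lay above the median of all genes for 7 of the 50 and for 61 of the 64. At codon position 3 the medians were 44.0%, 70.1% and 60.2%. Lysine made up a median of 11% of residues in proteins of genes with a higher TE, 4.22% in those with a lower TE and 5.74% in all, and it exceeded the median of all genes in 47 of the 50 and 17 of the 64. Glutamate followed lysine, with medians of 9.17%, 5.39% and 6.93%. The medians of the other residues were 3.92%, 5.79% and 5.46% for proline, 6.43%, 8.53% and 6.91% for alanine, and 5.61%, 7.68% and 6.21% for glycine. The proteins of the genes with a higher TE were shorter, with a median of 254 residues against 468 in each of the other sets.

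The relation to GC content extended across all genes and was seen in the footprints. Across 5382 genes, Spearman's rank correlation with the GC content of the coding sequence was -0.43 for the TE change, -0.41 for the footprint change and 0.06 for the mRNA change. These are descriptions across genes, which share the same libraries and are not independent replicates. With the genes divided into 5 bins of equal size, the median TE change in the bin with the lowest GC content (35.2% to 47.1%) was 0.12, with 31 genes called higher and 0 lower, and in the bin with the highest (58.2% to 75.2%) it was -0.11, with 3 higher and 33 lower. The rank correlation with the share of lysine was 0.32 and with that of proline -0.26. Within the bins of GC content the rank correlation with lysine was 0.19, 0.17, 0.19, 0.12 and 0.09, from lowest to highest GC, and the rank correlation with proline lay between -0.14 and -0.09. Library by library, the deviation of each gene was taken from its mean over the Control libraries of that assay. For a Control library the other Control libraries gave the mean, so the overexpression libraries share their reference. The rank correlation of this deviation with coding GC content was -0.35, -0.37 and -0.36 in RPL3L OE Ribo-seq. It was -0.30, -0.19 and -0.28 in RPL3 OE Ribo-seq and between -0.07 and 0.09 in Control Ribo-seq. In RNA-seq it ranged from -0.09 to 0.18, the highest value being that of RPL3L OE 3. Whether the trend belongs to the preparation of the footprint libraries or to translation was not tested.

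**Figure D4:**
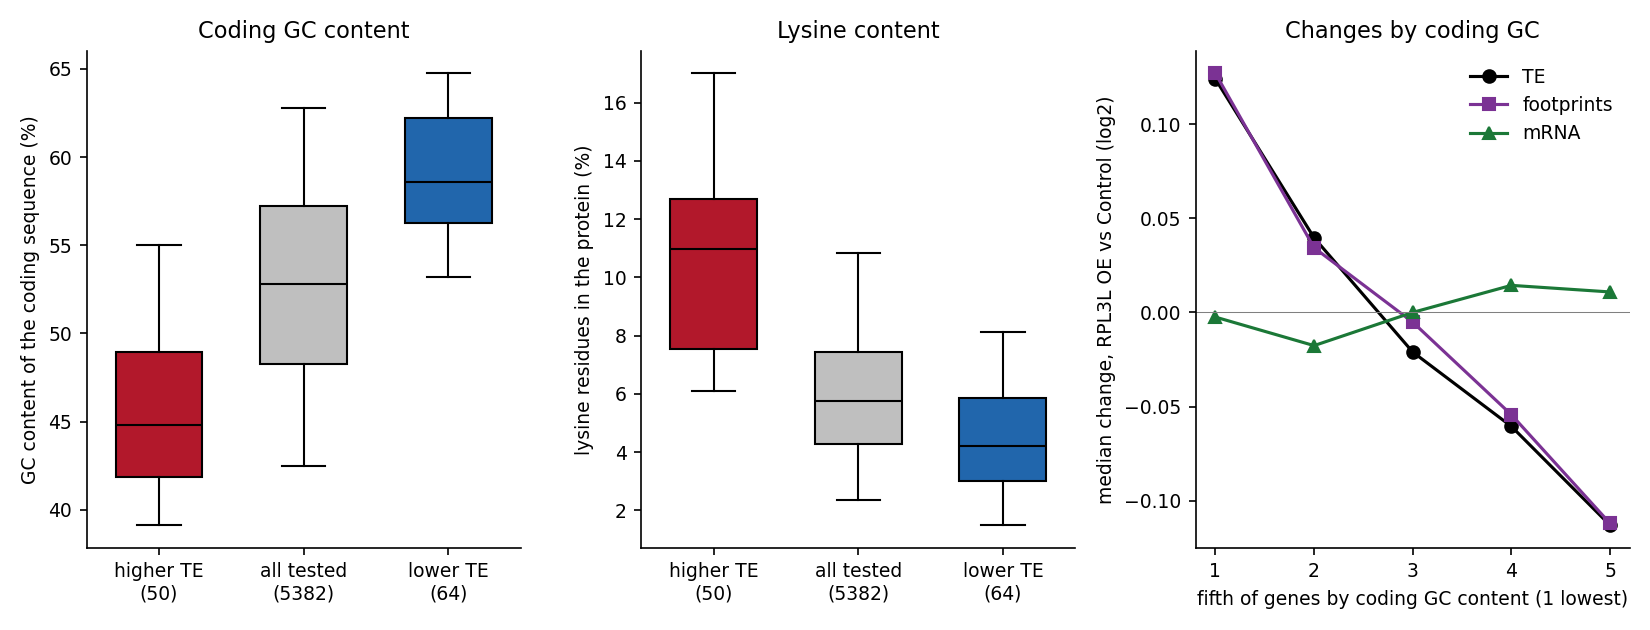
Coding GC content and share of lysine residues (percent) of genes with a higher TE, all genes tested and genes with a lower TE, as boxes (median and quartiles, whiskers from the 5th to the 95th percentile), and the median log2 change of TE, footprints and mRNA in 5 bins of genes by coding GC content. Footprints and TE descend together from the bin with the lowest to that with the highest GC content, while mRNA stays near 0.

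Overexpression of RPL3 shared its Control libraries with RPL3L OE, so that values of the same genes are given side by side only. In RPL3 OE cells 5 genes were called for TE (0.0924%), all lower: *Myl9* (-0.45), *S100a4* (-0.43), *S100a6* (-0.39), *Col1a1* (-0.38) and *Thbs1* (-0.32), of which *Myl9*, *Col1a1* and *Thbs1* were also lower in RPL3L OE. At an unadjusted p under 0.05 there were 449 genes. The count of calls rose to 25 without RPL3 OE 3, 12 with DESeq2 and 13 with a block by culture, and was 3 without Control 2, RPL3 OE 1 or RPL3 OE 2 and in the fit of the compared groups alone. The summed mRNA of the fibroblast markers, *Col1a1* among them, was 1180 to 1240 CPM in Control and 2050 to 2060 CPM in RPL3 OE libraries, and that of the myoblast markers was 763 to 806 CPM and 540 to 591 CPM. The part of these shifts in the calls was not tested. The genes with a higher TE in RPL3L OE had a median change of 0.15 in RPL3 OE, and those with a lower TE a median of -0.16. For *Polr2k* the TE change was 0.70 in RPL3L OE and 0.31 in RPL3 OE, for *Cetn3* it was 0.54 and 0.34, and for *Igfbp2* it was -0.34 and 0.10.

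The TE of RPL3L OE and RPL3 OE cells was then compared directly, and 15 genes (0.277%) differed, 7 higher and 8 lower in RPL3L OE. Of the 114 genes, 8 were among them. *Smc4* (0.31, SE 0.07), *Ppil4* (0.48, SE 0.11) and *Gid8* (0.46, SE 0.11), whose product belongs to a ubiquitin ligase complex, were higher in RPL3L OE. *Igfbp2* (-0.44, SE 0.06, edgeR adjusted p = 2.59e-05), *Agap1* (-0.65, SE 0.11), *Sox9* (-0.39, SE 0.08), *Zfhx3* (-0.53, SE 0.12) and *Rpl3l* itself (-4.28, SE 0.39) were lower. Some of these differences lay in mRNA. Mean *Smc4* footprints were 202 CPM in each overexpression, with mRNA of 436 CPM in RPL3 OE and 355 CPM in RPL3L OE. *Igfbp2* mRNA was 130 and 540 CPM and its footprints 251 and 768.5 CPM, respectively. For *Ppil4*, mRNA was 43.6 and 43.9 CPM and footprints 42.7 and 59.7 CPM. Leaving out single pairs of libraries moved the count between 4, without RPL3 OE 2, and 26, without Control 1. Control 1 enters through the shared estimate of the spread.

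Hearts that lack *Rpl3l* provided separate samples for the same genes. Depth differed between the heart genotypes, with total RNA-seq counts of 3594696 to 14041366 in WT and 10930435 to 22425296 in KO. In Ribo-seq the totals were 1873813 to 3192090 and 1606700 to 2322481, respectively. What part depth had in the heart values, including their relation to GC content, was not tested. No gene was called for TE in *Rpl3l* KO against WT heart (0% of 5275, edgeR quasi-likelihood), with 339 at an unadjusted p under 0.05 and a smallest adjusted p of 0.657. DESeq2 likewise called 0, with 295 at an unadjusted p under 0.05. Of the 47 genes with a higher TE in RPL3L OE that were also tested in heart, 39 (83%) had a TE change of opposite sign there, with a median of -0.29. Of the 60 genes with a lower TE, 52 (86.7%) did, with a median of 0.21. Over all 4567 genes tested in both, the share of opposite signs was 61.7%. *Smc4* changed by -0.72 (SE 0.24) in heart, *Cetn3* by -0.51 (SE 0.21), *Zmiz1* by 0.52 (SE 0.38) and *Hspg2* by 0.27 (SE 0.19), whereas *Tnnt2* (0.07, SE 0.17) and *Thbs1* (-0.20, SE 0.41) kept the sign seen in RPL3L OE. With GC and length trends removed in both models the opposite signs numbered 30 of 47 (63.8%) and 44 of 60 (73.3%), against 53.7% of all genes. Leaving out each heart in turn gave 33 to 42 genes among those with a higher TE and 46 to 55 among those with a lower TE.

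The dependence on GC content ran the other way in heart. The rank correlation with coding GC content was 0.52 for the TE change in *Rpl3l* KO heart, -0.43 in RPL3L OE and -0.29 in RPL3 OE, and the rank correlation with lysine was -0.32, 0.32 and 0.15, respectively. From the lowest to the highest bin of GC content the median TE change in heart went from -0.22 to 0.21.

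**Figure D5:**
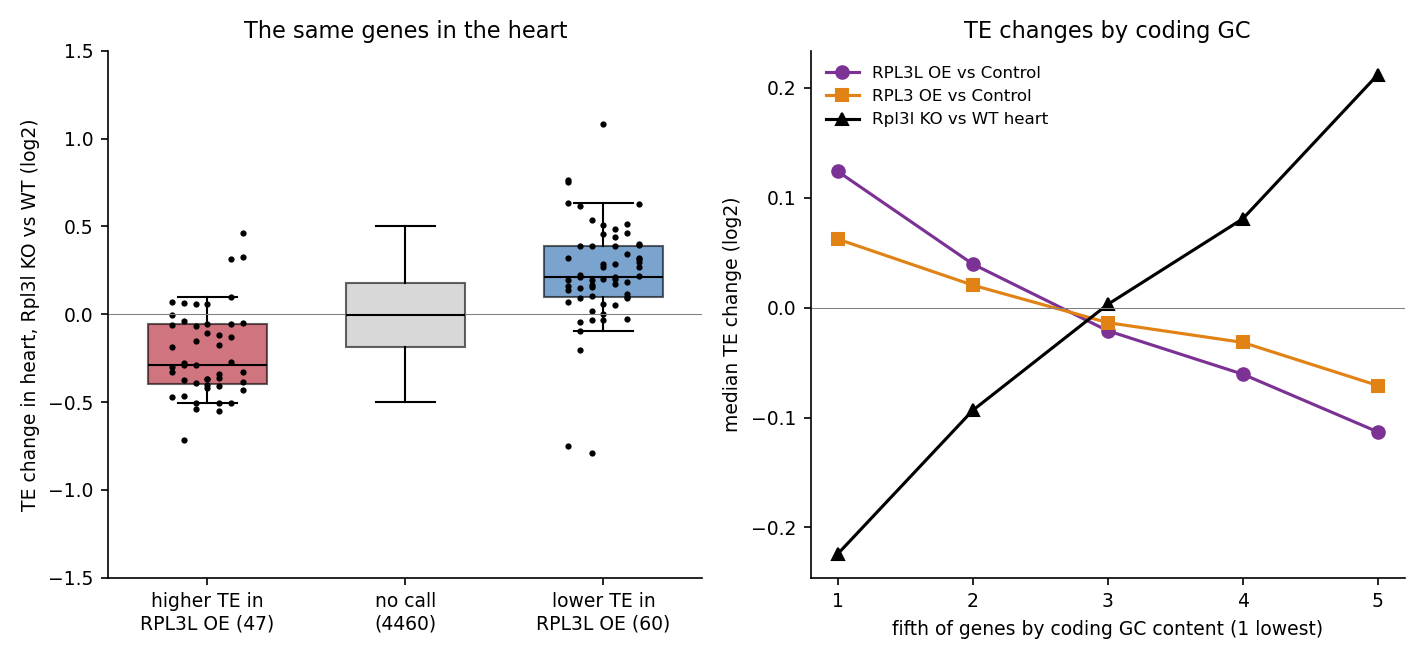
Log2 TE change in *Rpl3l* KO against WT heart of genes with a higher TE, no TE call and a lower TE in RPL3L OE cells (left), and the median log2 TE change by bin of coding GC content in RPL3L OE cells, RPL3 OE cells and KO heart (right). Most genes with a higher TE lie below 0 in heart and most with a lower TE above it, and the line of KO heart rises with GC content while those of the overexpressions descend.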

How the data were processed

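Ribo-seq and RNA-seq libraries of C2C12 cells and of mouse hearts were analysed from a deposited table of read counts per transcript. Per the study's methods, the authors trimmed reads with cutadapt, removed rRNA reads and used STAR for alignment, to transcripts of GRCm38.p6 and to mm10, allowing multiple mappings, collapsed Ribo-seq reads by molecular identifier, and counted with featureCounts, all in versions not given in the sources used here. The counts deposited are whole numbers with no normalization. Total counts per library were 7647102 to 29746110 (RNA-seq) and 3167026 to 6093268 (Ribo-seq) in C2C12 cells and 3594696 to 22425296 and 1606700 to 3192090 in heart, and few counts limit the precision of genes near the minimum.

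Each transcript appeared on a pair of identical lines, and 1 was kept. Of 23877 transcripts, 215 (0.90%) had no match in GENCODE M21 and entered library totals only. Every matched transcript was on the plus strand, and minus-strand genes, *Rpl3* included, were not analysed here. The transcript with the highest mean count over the 18 C2C12 libraries stood for its gene, and its mean count had to reach 10 in both assays. With edgeR 4.0.16 (R 4.3.3), all 18 C2C12 libraries were fitted in 1 quasi-likelihood model of 6 group-by-assay means with TMM factors per assay, so that RPL3 OE libraries shared the estimate of the spread. TE changes are the interaction contrast, two-sided, with Benjamini-Hochberg adjustment over all genes tested. The 16 heart libraries were fitted in the same way. CPM use TMM factors, except the marker levels given with the depth and all marker sums, which use unscaled library totals. Coding sequences were read from GRCm38 with GENCODE M21. The authors' tool for TE was not used. Alternatives were a fit of the compared groups alone, DESeq2 1.42.0, other filters and scaling, and a replicate block. Further ones left out both libraries of each group and number in turn. Removal of GC and length trends was added after the data were seen, as was leaving out each heart for the counts of opposite signs. The model was also run on simulated counts with planted TE changes larger than most called here and no GC trend. That run gives no measure of its performance on changes of the size called here. Libraries of 1 group differed by more than sampling noise (chi-square per degree of freedom at least 1.65 in RNA-seq and 1.27 in Ribo-seq).

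Genes named were *Rpl3l*, the 8 smallest p-values and the 6 largest TE changes in each direction among called genes, up to 4 called members of each list or else the 2 with the smallest p-values, and all genes of the direct comparison. The remaining called genes that are named were chosen after their values were seen. The comparison, gene lists and this rule were chosen with earlier results of these data known. Disome and m6A data were not used. A gene that this rule also selects is not reported here.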

Additional observations from a re-analysis of the deposited data

Results flagged for a closer look

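The 15 genes that differed in TE between the overexpressions by the direct test (edgeR interaction contrast, adjusted p under 0.05) are given as log2 differences, RPL3L OE minus RPL3 OE, with 3 libraries of each assay per group. Higher in RPL3L OE were *Actr3b* (1.53), *Rnf14* (0.483), *Ppil4* (0.477), *Gid8* (0.461), *Aida* (0.421), *S100a4* (0.394) and *Smc4* (0.307). Lower were *Rpl3l* (-4.28), *Agap1* (-0.646), *P4ha2* (-0.548), *Zfhx3* (-0.527), *Igfbp2* (-0.438), *Sox9* (-0.387), *Ly6e* (-0.374) and *Ptgs1* (-0.287). *P4ha2*, *Ly6e*, *Ptgs1*, *Actr3b*, *Rnf14*, *Aida* and *S100a4* were not called in RPL3L OE against Control, and *Actr3b* had 13 to 24 footprint counts in Control libraries.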

How the results depend on the processing

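With each pair of libraries left out in turn, TE calls in RPL3L OE numbered 27 to 127. mRNA calls numbered 377 to 615, footprint calls 464 to 689, TE calls in RPL3 OE 3 to 25 and those of the direct comparison 4 to 26. In heart there were 0 throughout. mRNA calls fell to 377, 386 and 391 without Control 3, RPL3L OE 2 and RPL3L OE 3, respectively, and the direct comparison gave 23, 7, 24, 7 and 6 without Control 2, RPL3 OE 1, RPL3 OE 3, RPL3L OE 2 and RPL3L OE 3. TE calls in RPL3 OE were 3 without Control 2, RPL3 OE 1 or RPL3 OE 2. With all transcripts in place of 1 per gene, 13457 were tested, with 280 TE calls in 141 genes. That fit gave 1391 mRNA calls, 1472 footprint calls and 41 in the direct comparison. DESeq2 called 94 genes for TE, 339 for mRNA and 12 for TE in RPL3 OE, and the fit of the compared groups alone gave 131 and, in RPL3 OE, 3 for TE. Removing GC and length trends gave 53 TE calls. The cause of these differences was not tested. No called value of a named gene reversed its direction, whereas the uncalled TE change of *S100a4* ranged from -0.15 to 0.06: of the results by gene, 1001 kept their side of the threshold, 115 lost the call and 18 gained it. Libraries with the same number did not deviate together (correlations of -0.108 to 0.108 over 4283 genes, with 1 of the 9 pairs of assays over 0.1), and a replicate block gave 96 TE calls. A replicate block by culture, shared by both assays of a group and number, gave 156 TE calls, 13 in RPL3 OE and 29 in the direct comparison. Counts under about 30 per library limit some of the largest TE changes.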
